A study of Mus musculus with 6 samples.

Results

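The genes described here were those of the mouse major histocompatibility complex (MHC) and of the machinery that loads it, 43 of the 21951 protein-coding genes of the GENCODE M21 annotation of mm10. They were chosen by name and position only. Every protein-coding gene on chromosome 17 with a symbol starting H2- was taken, together with B2m, Tap1, Tap2, Tapbp, Psmb8, Psmb9, Nlrc5, Ciita and Cd74. The list held 24 class I genes, 9 class II genes, 6 genes of class I peptide processing, 2 regulators, the invariant chain Cd74, and H2-Ke6, a hydroxysteroid dehydrogenase that carries an H2- symbol without being an MHC gene.

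Accessible chromatin was mapped by ATAC-seq, a method that marks open DNA with insertions of the transposase Tn5, in 6 libraries of wild-type mouse CD4 T cells, 2 each from Th9, Th2 and Th17 cultures. Per the labels, all cells came from spleen of C57BL6/J mice, as naive T cells (the methods name spleens and lymph nodes), and were polarised in vitro. Per the methods, Th2 cultures received IL-4 and IL-2, Th9 cultures the same cytokines with TGF-β1, and Th17 cultures IL-6, TGF-β1, IL-23 and IL-1β with antibodies to IL-4 and IL-2. An antibody to interferon-γ was in all 3 cultures. The cultures held a whole population, so fewer cells with an open promoter and a less open promoter in each cell cannot be told apart. The libraries of each subset carry the numbers 1 and 3. The labels do not say whether these were separate animals, so the p-values measure the spread between libraries only.

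MHC class I molecules, built from a heavy chain and β2-microglobulin, display peptides from inside the cell and are made by nearly all nucleated cells. MHC class II molecules, made of an α and a β chain and assembled with the invariant chain, display peptides from the endosome and belong mainly to B cells, dendritic cells and macrophages, whereas mouse T cells are known for making little or none. Transcription of both classes rests on a shared promoter module, whose X boxes are bound by the RFX complex and CREB family factors and whose Y box is bound by NF-Y. NLRC5 drives class I from this module and CIITA drives class II. The list therefore holds promoters that T cells use beside promoters that they are not known to use.

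Promoter stretches are printed first, with words of the shared module and of other elements in capitals. The promoter sequences were those of RefSeq on GRCm38.p6, which is the assembly behind mm10. Of the 43 genes, 36 had an entry. Each runs from 220 bases before to 20 bases after the RefSeq start, read 5′ to 3′ on the strand of the gene. Capitals mark exact matches, on either strand, to the Y box word CTGATTGG, the X1 word AGCAAC, the X2 word TGANGTCA, the κB word GGGATTCC of class I enhancers, or the interferon-stimulated response element GAAANNGAAA.

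The first 3 are class I promoters that were called open in every library, H2-K1 at chr17:34000328-34000567 on the minus strand, H2-D1 at chr17:35262874-35263113 and H2-Q7 at chr17:35438935-35439174 on the plus strand. For H2-D1 the RefSeq start lies downstream of the annotated start used for the calls, chr17:35262730. Its stretch is therefore outside the window of the call, although the H2-D1 peak covered it in every library. The fourth, H2-Q10 at chr17:35469869-35470108 on the plus strand, is a close relative called in only 4 libraries.
H2-K1: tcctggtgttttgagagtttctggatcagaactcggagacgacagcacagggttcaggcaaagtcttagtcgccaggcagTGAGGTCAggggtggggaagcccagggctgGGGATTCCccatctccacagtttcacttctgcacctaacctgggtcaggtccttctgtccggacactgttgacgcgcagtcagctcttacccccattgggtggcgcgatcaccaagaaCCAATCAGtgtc
H2-D1: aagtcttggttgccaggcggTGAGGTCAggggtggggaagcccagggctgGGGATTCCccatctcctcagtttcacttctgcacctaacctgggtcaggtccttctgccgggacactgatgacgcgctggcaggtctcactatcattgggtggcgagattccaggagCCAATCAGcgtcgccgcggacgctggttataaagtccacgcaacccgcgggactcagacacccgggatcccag
H2-Q7: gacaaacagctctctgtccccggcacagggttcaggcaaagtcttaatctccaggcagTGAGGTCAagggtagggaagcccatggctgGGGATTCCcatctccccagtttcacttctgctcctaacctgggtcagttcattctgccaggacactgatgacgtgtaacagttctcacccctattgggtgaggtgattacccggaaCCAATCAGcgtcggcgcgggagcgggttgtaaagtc
H2-Q10: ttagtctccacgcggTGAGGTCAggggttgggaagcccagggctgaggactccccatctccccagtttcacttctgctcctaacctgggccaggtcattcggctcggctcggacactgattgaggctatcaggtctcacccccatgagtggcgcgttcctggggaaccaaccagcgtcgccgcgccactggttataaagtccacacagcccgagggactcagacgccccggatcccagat

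The promoter of B2m, the gene of the light chain that all class I molecules share, lies at chr2:122147467-122147706 on the plus strand and is shown for its interferon response element.
B2m: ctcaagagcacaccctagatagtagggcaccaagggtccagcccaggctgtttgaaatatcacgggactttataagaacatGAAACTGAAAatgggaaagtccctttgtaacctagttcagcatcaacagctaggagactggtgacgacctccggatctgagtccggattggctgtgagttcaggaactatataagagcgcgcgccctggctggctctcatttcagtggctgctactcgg

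The class II promoters shown are H2-Aa at chr17:34287804-34288043 on the minus strand and H2-Eb1 at chr17:34305647-34305886 on the plus strand, called in every library, H2-Oa at chr17:34092159-34092398 on the plus strand, called in 4, and H2-Eb2 at chr17:34325455-34325694 on the plus strand, called in none.
H2-Aa: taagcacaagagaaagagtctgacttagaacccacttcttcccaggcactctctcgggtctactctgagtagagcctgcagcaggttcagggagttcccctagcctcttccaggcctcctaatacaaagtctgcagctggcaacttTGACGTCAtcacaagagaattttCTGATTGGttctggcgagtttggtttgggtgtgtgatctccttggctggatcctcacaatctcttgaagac
H2-Eb1: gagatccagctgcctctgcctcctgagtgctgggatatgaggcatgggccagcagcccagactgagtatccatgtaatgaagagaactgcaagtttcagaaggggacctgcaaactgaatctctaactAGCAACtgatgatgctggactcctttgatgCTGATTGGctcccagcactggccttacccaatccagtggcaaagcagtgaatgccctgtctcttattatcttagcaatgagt
H2-Oa: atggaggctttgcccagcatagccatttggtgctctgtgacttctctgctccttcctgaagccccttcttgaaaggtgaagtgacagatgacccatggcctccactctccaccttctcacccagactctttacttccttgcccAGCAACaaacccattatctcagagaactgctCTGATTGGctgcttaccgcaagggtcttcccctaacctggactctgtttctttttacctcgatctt
H2-Eb2: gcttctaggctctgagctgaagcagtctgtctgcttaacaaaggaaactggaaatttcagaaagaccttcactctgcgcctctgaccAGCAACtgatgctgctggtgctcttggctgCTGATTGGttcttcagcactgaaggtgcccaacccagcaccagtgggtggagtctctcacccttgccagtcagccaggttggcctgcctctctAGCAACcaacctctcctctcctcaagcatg

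The Y box word was in the 300-base promoter of 13 of 22 class I genes and 4 of 8 class II genes with an entry, against 4.7% of all 27025 RefSeq promoters of the same length. The X1 word was in 2 class I and 4 class II promoters, against 16.7% of all. The κB word was in 4 class I promoters, those of H2-K1, H2-D1, H2-Q6 and H2-Q7, in no class II promoter, and in 1.23% of all. The X2 word was in 5 class I promoters and 1 class II promoter, and in 10% of all. In H2-Aa it began at base −74, close to the Y box word at −51. In H2-D1 it began at −200, before the κB word and far from the Y box word. The class I matches are therefore not shown to be the X2 box of the module. An exact match to the interferon-stimulated response element word GAAANNGAAA was in 2 class I promoters, in no class II promoter and in 1 of 5 processing promoters, B2m, against 3.99% of all. The gamma-activated site TTCNNNGAA was in 2 class I, 1 class II and 1 processing promoter, against 9.55% of all. The shorter ATTGG, which lies inside the Y box word, was in 19 class I and all 8 class II promoters, against 41.1% of all. H2-Q10 and H2-D1 shared 82.2% of aligned promoter bases, and H2-Q10 had neither the κB word nor the Y box word that H2-D1 carries at bases −170 and −53 from its start. These words are short and a match is a description of the sequence, not of a bound site. Only exact matches were counted, so a promoter without a match may still hold a variant of the element.

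Each library was represented by its own list of broad peaks, between 100317 and 142213 of them. A gene was called in a library when a peak of the list overlapped a window around any of its annotated starts, reaching 1000 bp before the start and 100 bp past it. The strength of the call was the percentile, within that library's list, of the fold enrichment over background of the strongest such peak. A percentile of 90 thus means that 90% of the library's peaks were no stronger. The lowest fold enrichment called was 2.11 in Th9 replicate 1 and 1.71 to 1.83 in the other 5 libraries. Read depths were unknown, since the lists hold no counts.

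Of the 43 genes, 23 were called in all 6 libraries, against 58.7% of all protein-coding genes. Among 12 T cell genes the count was 11 (Cd3d, Cd3e, Lck and others), with Cd4 called in 4 libraries. A call alone does not give a cell's identity, since the B cell genes Ebf1 and Cr2 were called in all 6 libraries too, at 90.5 to 95.9 and 84.5 to 97.6. Of the 43 MHC and processing genes, a further 4 were called in some libraries, and 16 were called in none, against 28% of all genes. The share with a call depended on the class. All 6 processing genes were called throughout, 9 of 24 class I genes and 5 of 9 class II genes. In single libraries, 41.7% of class I genes were called in each Th9 and Th2 library and 37.5% in each Th17 library. The share of class II genes ranged from 66.7% in Th9 replicate 1, Th2 replicate 1 and both Th17 libraries to 77.8% in Th9 replicate 3 and 88.9% in Th2 replicate 3. The same share over all genes was 65.6% and 64.7% in the Th9 libraries, 65.5% and 66.9% in the Th2 libraries, and 63.8% and 62.4% in the Th17 libraries. Under these settings class II promoters were called about as often as promoters in general, and class I promoters less often. Most of the uncalled class I genes belonged to the H2-M group.

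Stricter settings ended the parity of class II. With a minimum −log10 q of 5, 21 genes were called in all libraries, 9 of class I and 3 of class II, against 51.5% of all genes, and H2-Aa and H2-Eb1 were the class II genes lost. With a minimum fold of 4 the counts were 10, 5 and 1, against 40.7% of all genes, and with the top 20000 peaks they were again 10, 5 and 1, against 40.3%. H2-DMa was then the class II gene that remained, and B2m, Psmb9 and Tap1 the processing genes. The other settings kept the counts close to 23, 9 and 5. They were 23, 9 and 5 with lists of equal length, against 57.9% of all genes, 21, 8 and 4 with an overlap of 200 bp or more, against 54.8%, 24, 9 and 6 with windows of 2000 bp on either side, against 62.8%, and 24, 9 and 6 with the comprehensive annotation, against 60.6%.

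**Figure D1:**
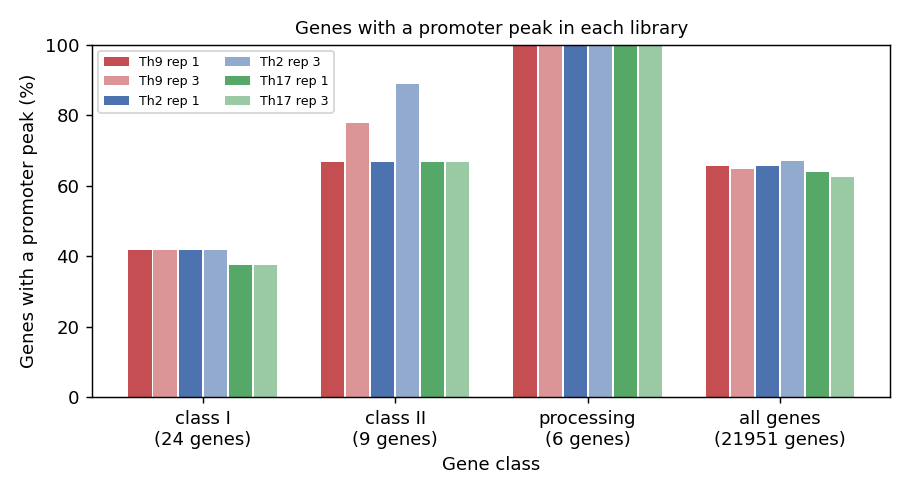
Percent of genes with a promoter peak (vertical axis) in each of the 6 libraries, for class I, class II, processing genes and all protein-coding genes; solid and pale bars are replicates 1 and 3. Class I bars stand at 37.5% to 41.7%, below the 62.4% to 66.9% of all genes, and the processing bars at 100%.

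The strength of the calls was below that of other promoters and their width above it. Over the 23 genes called in all libraries, the median percentile was 83.8 to 90.5 in single libraries, against 92.3 to 94.2 over the 12886 genes called in all libraries. The median width of the strongest peak was 1825 to 2168 bp, against 1282 to 1684 bp over all genes. Class I promoters had medians of 86.5 to 90.6 and widths of 1802 to 2200 bp. Class II promoters had medians of 69.2 to 85.0 and widths of 510 bp in Th17 replicate 1 to 1679 bp in Th2 replicate 1. The narrow class II medians were those of the Th17 libraries, 510 and 518 bp.

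**Figure D2:**
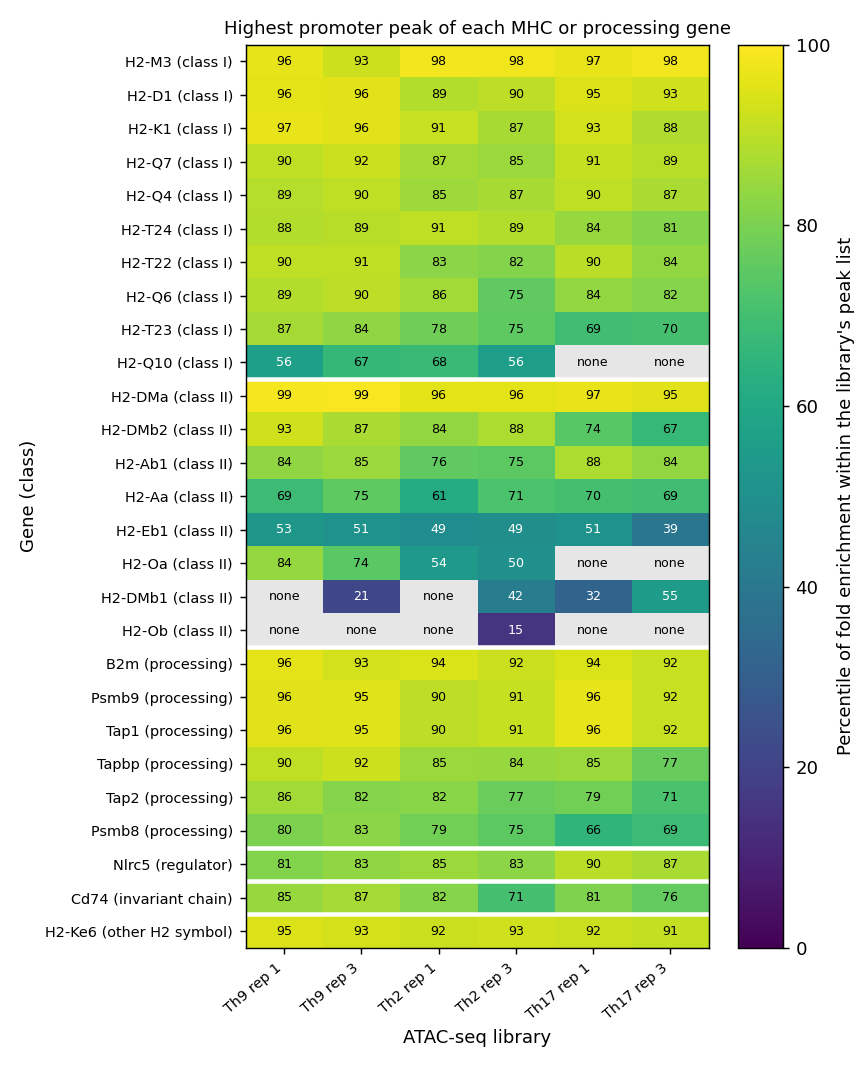
Percentile of the strongest promoter peak of each of the 27 genes called in at least 1 library (rows, grouped by class) in each library (columns), with grey for no peak in the window. H2-M3, H2-DMa, B2m, Psmb9, Tap1 and H2-Ke6 lie above the 90th percentile in every library, and H2-Eb1 between 39.4 and 52.9.

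Among the classical class I heavy chains, H2-K1 and H2-D1, which present peptides to CD8 T cells, had a promoter peak in every library. H2-K1 lay at the 96.8 and 95.7 percentiles in Th9 replicates 1 and 3, 91.5 and 87.1 in Th2, and 93.2 and 88.0 in Th17. Both Th9 values stood above all 4 others. H2-D1 lay at 95.8 and 95.6 in Th9, against 88.5 and 90.1 in Th2 and 94.7 and 92.7 in Th17, so the subsets did not overlap and Th2 was lowest. In Th2 both genes were below the median over all genes called, 92.8 in replicate 1 and 92.3 in replicate 3. In Th17, H2-K1 was also below that median, 93.81 in replicate 1 and 92.69 in replicate 3. H2-D1 was just below it in Th17 replicate 3, at 92.66. The peaks were 1953 to 2502 bp wide at H2-K1 and 1931 to 2168 bp at H2-D1.

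The Q region holds nonclassical class I genes, of which 3 were called in all libraries. H2-Q7, which encodes the Qa-2 antigen, lay at 90.5 and 92.1 in Th9, against 86.5 and 84.8 in Th2 and 91.1 and 89.3 in Th17. H2-Q4 lay between 85.3 and 90.5 over the 6 libraries and H2-Q6 between 75.4 and 89.9. Their sequences are not unique: 70.9% of the 50-base words in the H2-Q6 window and 53.9% of those in the H2-Q7 window occur again in the assembly. Since the authors discarded read pairs of low mapping quality, values at these genes are uncertain. At H2-Q4, with 8.17% of repeated words, and H2-D1, with 2.76%, this touches little of the window. At H2-K1 the share was 13.1%. Repeated words were counted in the window only. The H2-D1 peaks overlapped the window by 348 to 475 bp and lay mostly downstream of it, where no words were counted.

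H2-Q10, which encodes a secreted class I molecule known from liver, had a call in all 4 Th9 and Th2 libraries, and Th17 had none. Its percentiles were 56.3 and 66.5 in Th9 and 67.6 and 55.7 in Th2. In 3 of these libraries the peak was only 199 to 272 bp wide and centred at −912 to −943.5 bp from the start, so the start itself was not covered. In Th2 replicate 3 alone the peak was 2269 bp wide and spanned the start. None of the 50-base words of this window is repeated in the assembly.

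In the T region, H2-T23, H2-T22 and H2-T24 were called in all libraries. H2-T23, which encodes Qa-1, a ligand of natural killer cell receptors, was ordered in steps across the subsets, from 86.5 and 83.6 in Th9 to 78.5 and 75.2 in Th2 and 69.4 and 70.5 in Th17, without overlap. These H2-T23 peaks lay mostly inside the gene, centred 612 to 1267 bp downstream of the start. They overlapped the window by 78 to 188 bp, except in Th9 replicate 3 (691 bp). In Th9 replicate 1 and Th17 replicate 1 they did not reach this annotated start, chr17:36032855. They did cover the RefSeq start of H2-T23, which lies further inside the gene. With an overlap of 200 bp or more, H2-T23 was no longer called in all libraries. In this window 60.4% of 50-base words are repeated in the assembly. H2-T22, a ligand of some γδ T cell receptors, lay at 90.3 and 90.6 in Th9, against 82.7 and 81.6 in Th2 and 89.6 and 83.6 in Th17. Its peak also covered the promoter of Gm6034. H2-T24 had another order, with 90.5 and 88.6 in Th2, 88.4 and 89.2 in Th9, and 84.4 and 81.5 in Th17.

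H2-M3, which presents N-formylated peptides of bacterial and mitochondrial origin, was the only gene of the M group that was called, and it was the class I gene with the reverse order. It lay at 96.3 and 92.5 in Th9, against 98.1 and 97.9 in Th2 and 96.8 and 98.2 in Th17. Both Th9 values were below all other values, although every library had it above the 92nd percentile.

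No call was made in any library at 14 class I genes. These were H2-Q1, H2-Q2, H2-T3, which encodes the thymus leukaemia antigen, H2-M1, H2-M2, H2-M5, H2-M9, H2-M11, and the 6 H2-M10 genes (H2-M10.1 to H2-M10.6), known from sensory neurons of the vomeronasal organ. The Y box word did not separate closed from open class I promoters. It was in 8 of the 13 uncalled genes with a sequence, all of the M group, and in 5 of the 8 called in all libraries. In the M group at most 10.4% of the 50-base words recurred in the assembly, at H2-M10.3. At H2-Q1, H2-T3 and H2-Q2 the shares were 23.8%, 21.1% and 11.5%. The part of repeated sequence in the missing calls was not tested. The 1199 kb that hold the M group had 3.5 to 4.67 peaks per 100 kb and 2.13% to 3.56% of bases covered. The 249.1 kb of the class II genes had 9.23 to 14.1 peaks per 100 kb and 9.78% to 15.8% covered.

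The genes that supply class I with peptide were open throughout. B2m, the shared light chain, lay between 91.6 and 95.7 in the 6 libraries. Psmb9, an immunoproteasome subunit, and Tap1, a subunit of the peptide transporter, start next to each other on opposite strands and shared 1 peak, at 95.6 and 95.0 in Th9, against 90.01 and 91.1 in Th2 and 96.4 and 91.8 in Th17. They therefore count as 1 measurement. Th2 was lower than both other subsets there.

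Tapbp, which encodes tapasin, the bridge between transporter and heavy chain, lay at 90.4 and 92.3 in Th9, against 85.1 and 84.5 in Th2 and 84.8 and 76.7 in Th17. Psmb8, another immunoproteasome subunit, lay at 80.4 and 82.7 in Th9, against 78.7 and 74.8 in Th2 and 65.6 and 68.6 in Th17, again in steps without overlap. Tap2, the partner of Tap1, lay at 86.3 and 81.8 in Th9, against 82.1 and 77.1 in Th2 and 78.8 and 71.3 in Th17, with Th9 and Th2 overlapping. Its peak was 2905 to 5205 bp wide. In the Tap2 window 18.5% of 50-base words are repeated.

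The class II α and β chains had promoter peaks in every library although the cells were T cells. H2-Ab1, the β chain of I-A, lay at 83.5 and 85.0 in Th9, against 75.7 and 74.7 in Th2 and 87.8 and 83.8 in Th17, so Th2 was lower than the rest. H2-Aa, its α chain, lay between 61.3 and 75.2, and the subsets overlapped. Its peak was 188 to 473 bp wide. H2-Eb1, the β chain of I-E, was the weakest of the class called throughout, at 52.9 and 51.1 in Th9, against 48.6 and 49.3 in Th2 and 50.9 and 39.4 in Th17. H2-Eb2, which carries the Y box word and the X1 word as H2-Eb1 and H2-Oa do, had no peak in its window in any library.

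H2-DMa and H2-DMb2, chains of the DM molecule that exchanges peptides on class II, had peaks in every library. H2-DMa was above the class II chains H2-Ab1, H2-Aa and H2-Eb1 in each. It lay at 98.6 and 98.8 in Th9, against 95.9 and 96.0 in Th2 and 96.8 and 95.4 in Th17. In 5 libraries its strongest peak was 5057 to 6271 bp wide and also covered a promoter of Brd2, a neighbouring gene of a bromodomain protein. In Th9 replicate 1 the strongest peak was 1235 bp wide, at 2 other starts of H2-DMa. At those starts, which are not shared with Brd2, the percentiles were 98.6 and 94.0 in Th9, against 94.9 and 90.02 in Th2 and 91.7 and 90.2 in Th17, where Th9 and Th2 overlap.

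H2-DMb2 lay at 92.8 and 87.4 in Th9, against 83.6 and 87.7 in Th2 and 74.1 and 66.9 in Th17. Both Th17 values were below all 4 others, and below those of H2-Ab1, while Th9 and Th2 overlapped. These values are those at the most upstream start of H2-DMb2. At its other starts they were 81.8 and 87.4 in Th9, against 14.6 and 65.8 in Th2. In Th17 they were 19.2 in replicate 1, with no peak in replicate 3. Th9 and Th2 did not overlap at those starts. The paralogue H2-DMb1 was weak, with no call in Th9 replicate 1 and Th2 replicate 1, 21.4 in Th9 replicate 3, 42.5 in Th2 replicate 3, and 32.1 and 54.9 in Th17. The windows of H2-DMb1 and H2-DMb2 had 23.1% and 11% of repeated words. Both libraries without the call carry the replicate number 1, so this pattern did not follow the subsets.

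The DO molecule, of H2-Oa and H2-Ob, inhibits DM. H2-Oa had calls of 84.1 and 74.2 in Th9, lower calls of 53.9 and 50.2 in Th2, and no call in Th17. The absence in Th17 was a matter of the window. Th17 cells had a peak at the same place, at 52.6 and 48.3, that began 154 and 181 bp downstream of the start, past the 100 bp allowed, whereas the Th2 peaks began 10 and 77 bp and the Th9 peaks 85 and 139 bp upstream of it. With those peaks counted, Th9 was above the other 4 libraries and Th2 and Th17 overlapped. The Th9 peaks were 666 and 1499 bp wide, the Th2 peaks 427 and 498 bp and the Th17 peaks 387 and 346 bp. H2-Ob was called only in Th2 replicate 3, at 15.3 with a peak of 207 bp.

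Cd74, the invariant chain that guides class II to the endosome, lay at 84.7 and 86.6 in Th9, against 81.7 and 70.6 in Th2 and 80.6 and 76.0 in Th17, with broad peaks of 2600 to 4100 bp. Of the regulators, Nlrc5 was open in every library at the most upstream of its 4 starts, with 81.2 and 83.3 in Th9, against 84.8 and 82.6 in Th2 and 89.8 and 87.2 in Th17. Both Th17 values were the highest. The other 3 starts had no peak. Ciita had no peak at any of its 5 annotated starts in any library. Across the gene and 10000 bp on either side, 8 regions had a peak in at least 1 library, none in all 6, and 5 of them were in a single library.

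Other cell types that express class II had to be considered beside these class II peaks. Of 9 B cell genes, Ebf1 and Cr2 were called in all 6 libraries, and Ms4a1, Cd79a, Pax5 and Cd22 in none. Between 2 and 4 were called in a library, the most in Th9. Cd79b was called in both Th9 libraries only, at 7.60 and 12.9, and Blnk in Th9 replicate 1 only, at 14.1. Fcer2a was called in 4 libraries, spread over all 3 subsets. Of 12 dendritic and myeloid genes, Zbtb46, Flt3 and Csf2ra were called in all libraries, and Csf1r, Lyz2, Clec9a, Mpeg1 and Cd209a in none. Between 3 and 7 were called in a library, the most in Th2. Itgax was called in both Th2 libraries only, at 55.1 and 71.4. The part of such cells in the class II peaks was not tested.

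The 3 subsets were compared pairwise on the log2 of fold enrichment after quantile normalisation, with limma, over the 12886 genes called in all libraries. None of the 23 MHC and processing genes passed an adjusted p of 0.05 in any comparison. Between Th9 and Th2, 0.504% of all genes passed as higher in Th9 and 0.993% as higher in Th2. Between Th9 and Th17 the shares were 0.396% and 0.233%, and between Th2 and Th17 they were 0.815% and 0.326%. With so few calls in general, 0 of 23 is near the background. At an unadjusted p under 0.05 in limma, 11, 7 and 4 of the 23 genes passed in the 3 comparisons. Over all 12886 genes, 2983, 1734 and 1833 passed, so the 4 between Th2 and Th17 are near the background.

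The genes leaned towards Th9 all the same. Their median log2 difference between Th9 and Th2 was 0.31, against 0.02 over all genes, and 20 of 23 were positive, against 52.2% of all genes. Between Th9 and Th17 the median was 0.20, with 18 of 23 positive, against a median of −0.00045 and 49.9% over all genes. Between Th2 and Th17 it was −0.09, with 10 of 23 positive, against −0.02 and 47.4%. The first and the second comparison share the Th9 libraries. By class, the Th9 minus Th2 median was 0.32 for class I, 0.23 for class II and 0.26 for processing genes, where all 5 class II and all 6 processing genes were positive. Psmb9 and Tap1 share 1 peak and its values, and count as 2 genes in every limma tally of the 23. The Th9 minus Th17 median was 0.20 for class I and 0.175 for processing genes, but 0.00019 for class II, with 3 of 5 positive, so that lean was not seen for class II against Th17.

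These medians moved with the scaling and with single libraries. Between Th2 and Th17 the median turned to 0.06 under median centring, with 13 of 23 positive, and to 0.06 without Th2 replicate 3, with 12 positive. Without Th9 replicate 3 the Th9 medians dropped to 0.19 against Th2 and 0.13 against Th17, with 17 and 16 genes positive.

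The same lean was seen in the percentiles. Both Th9 libraries lay above both Th2 libraries at 16 of the 23 genes, against 36.6% of all genes, and below both at H2-M3 alone, against 17.1%. Both Th9 libraries lay above both Th17 libraries at 14 genes, against 26.7%, and below both at H2-M3 and Nlrc5, against 13.9%. Th2 lay above Th17 without overlap at 5 genes, H2-DMb2, H2-T23, H2-T24, Psmb8 and H2-Ke6, against 22.7%, and Th17 above Th2 at 8, against 26%. As shares of the 23 genes these were 21.7% and 34.8%. The peak that Psmb9 and Tap1 share is counted under both names. H2-DMa is among the 16 and the 14, and its value is that of the peak shared with Brd2 in 5 libraries. With 2 libraries a subset, no test of a single gene by permutation was possible below 0.05.

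**Figure D3:**
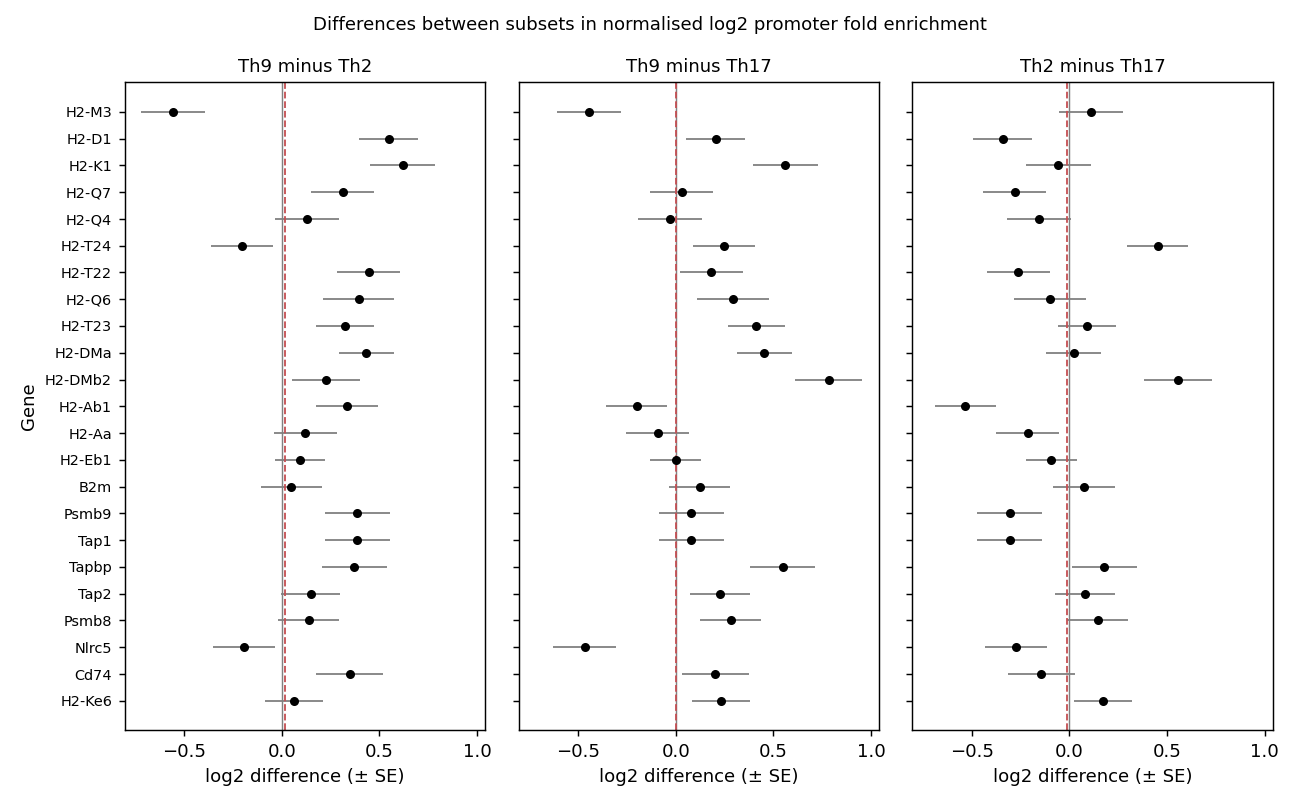
Difference in normalised log2 fold enrichment (points, ± SE from limma; 2 libraries a subset) for the 23 genes called in all libraries, in the 3 pairwise comparisons; the dashed line is the median of all genes. In the Th9 minus Th2 panel 20 of 23 points lie above 0, with H2-M3 at −0.56, and none passed an adjusted p of 0.05.

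The gene nearest to a call was H2-DMb2, with its value taken at the most upstream of its starts. For H2-DMb2 the normalised log2 values were 2.61 and 2.28 for Th9, 2.05 and 2.39 for Th2, and 1.69 and 1.63 for Th17, a difference between Th9 and Th17 of 0.78 ± 0.17 (SE, limma adjusted p = 0.0543). For H2-K1 they were 3.15 and 3.08 in Th9 and 2.65 and 2.34 in Th2, a difference of 0.62 ± 0.17 (limma adjusted p = 0.0716). For H2-D1 they were 2.98 and 3.07 in Th9 and 2.39 and 2.57 in Th2, a difference of 0.55 ± 0.15 (limma adjusted p = 0.0729). In all 3 the compared groups did not overlap, and the size was 3 or more times its SE. For H2-M3 the values were 3.07 and 2.71 in Th9 against 3.47 and 3.43 in Th2, a difference of −0.56 ± 0.16 (limma adjusted p = 0.0788). H2-DMa was 3.5 and 3.64 in Th9 against 3.12 and 3.16 in Th2, a difference of 0.43 ± 0.14 (limma adjusted p = 0.099). These 2 did not overlap either. The H2-DMa value is that of the peak shared with Brd2 in 5 libraries, and of another peak in Th9 replicate 1. At the starts not shared with Brd2, the Th9 and Th2 percentiles overlapped. H2-Ab1 was 1.67 and 1.66 in Th2 against 2.26 and 2.15 in Th17, a difference of −0.53 ± 0.16 (limma adjusted p = 0.121).

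These calls turned on the libraries used. Some of these genes passed in limma when Th9 replicate 1 or 3 was left out. In those comparisons the calls over all genes rose as well. Such a fit leaves Th9 with 1 library, so those calls were not read as a result about these genes. No gene of the list was called without any other single library. With the libraries centred on their medians instead of quantile-normalised, H2-DMb2 was called between Th9 and Th17. That scaling lowered the median of the 23 genes between Th9 and Th2 to 0.10, against −0.04 over all genes. It also moved the split of all genes called between Th9 and Th2 from 65 higher in Th9 and 128 higher in Th2 to 21 and 119, and that between Th2 and Th17 from 105 and 42 to 136 and 10. With normal scores of the percentile, the genes called between Th9 and Th17 went from 51 higher in Th9 and 30 higher in Th17 to 25 and 1.

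Peaks in and outside promoters were examined across the class II block, the 249.1 kb from H2-Oa to H2-Eb2, which also holds Psmb8, Psmb9, Tap1 and Tap2. The peaks of the 6 lists formed 37 joined regions, of which 19 had a peak in every library and 25 lay outside the promoter windows. In 6 of the 19, both Th9 percentiles were above all other libraries, against 8.94% of the regions of the genome called in all 6. Of these 6, the regions of H2-Oa, H2-DMa, Psmb8 and H2-Eb1 are promoters described above, and 2 lay outside the promoter windows. The H2-DMa region is the one shared with Brd2, with Th9 replicate 1 at 96.9 and Th17 replicate 1 at 96.8. The region at the other H2-DMa starts was not among the 6, with Th9 replicate 3 (94.0) below Th2 replicate 1 (94.9). In 2 of the 19, Th9 was above Th2 and Th2 above Th17 without overlap, against 2.01%. These patterns and the regions named next were chosen after their values were seen, and neighbouring regions are not independent.

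The region with the widest range lay 15347 bp downstream of the start of Tap2, between Tap2 and H2-Ob, at chr17:34218273-34219477 (mm10), outside any annotated protein-coding gene. It stood at 93.6 and 92.6 in Th9, against 79.7 and 70.1 in Th2 and 49.3 and 19.4 in Th17. Psmb8 had the other region in this order, at its promoter. A region inside the Tap2 gene, at chr17:34210462-34212244, had the reverse pattern, at 28.3 and 36.7 in Th9, against 81.0 and 78.0 in Th2 and 83.4 and 79.8 in Th17. It was the 1 region of the 19 with both Th9 values below all others, against 9% of regions in the genome. Th9 was thus highest at the first of these regions and lowest at the second, where Th2 and Th17 overlapped.

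Peaks present only in Th9 were at 2 of the 37 regions, against 1.31% of regions in the genome. The first, at chr17:34102800-34103147, lay 10633 bp downstream of the start of H2-Oa at 71.1 and 54.6. The second, at chr17:34280672-34281307, lay 6802 bp downstream of the start of H2-Aa at 43.1 and 59.3. A region 9647 bp downstream of the start of H2-DMb1 was at 66.3 and 71.96 in Th9, against 14.4 and 8.0 in Th2, and absent from the Th17 lists. None of the 37 regions was particular to both Th2 or both Th17 libraries. Upstream of B2m on chromosome 2, a region centred at −9612 bp from the start was at 87.8 and 86.3 in Th9, against 87.5 and 83.5 in Th2, 16.2 in Th17 replicate 1, and had no peak in Th17 replicate 3.

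**Figure D4:**
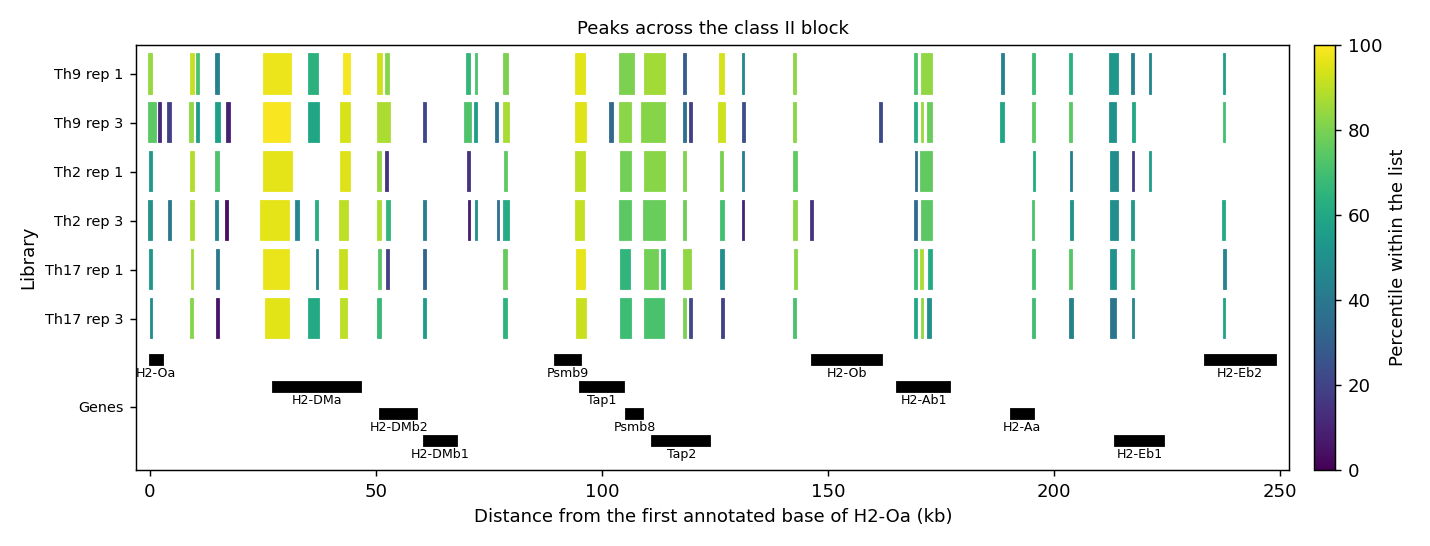
Peaks of the 6 libraries (rows) across the class II block, by distance in kb from the first annotated base of H2-Oa, coloured by percentile within the library's list; black bars are the genes. The column just past the Tap2 bar fades from 93.6 and 92.6 in Th9 to 49.3 and 19.4 in Th17, and the narrow column inside Tap2 is lowest in Th9.

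The rest of the pathway was read from lists. All 13 genes of MHC transcription factors were called in all libraries, among them Rfx5, Rfxap and Rfxank, the 3 subunits of the RFX complex, at 91.6 to 98.7, and Nfya, Nfyb and Nfyc, the subunits of NF-Y, at 95.6 to 99.8. None of the 13 passed in limma in any comparison, and their Th9 minus Th2 median was 0.20. The factors of the shared promoter module thus had open promoters where Ciita had none. All 6 genes of the interferon-γ receptor pathway were called throughout, and Jak2, a kinase of the receptor, was higher in Th9 than in Th2. Jak2 lay at 99.6 and 99.4 in Th9, against 96.6 and 96.7 in Th2 and 99.1 and 98.0 in Th17. Its log2 difference between Th9 and Th2 was 0.67 ± 0.14 (SE, limma adjusted p = 0.0334). The call was lost in 5 of 12 alternatives, whose limma adjusted p ranged from 0.019 to 0.214. These were normal scores of the percentile (0.119) and the fits without Th2 replicate 1 (0.155), Th2 replicate 3 (0.214), Th17 replicate 1 (0.0732) and Th17 replicate 3 (0.0749).

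Of 15 further genes of peptide supply and class I assembly, 14 were called in all libraries and Ide, a cytosolic protease, in none. Erap1, which trims peptides in the endoplasmic reticulum, was the 1 gene that passed, lower in Th9 than in Th2. It lay at 89.5 and 85.4 in Th9, against 94.5 and 94.1 in Th2 and 88.6 and 92.5 in Th17, a Th9 minus Th2 difference of −0.73 ± 0.17 (SE, limma adjusted p = 0.0467). This call was lost in 8 of 12 alternatives, with limma adjusted p from 0.0175 to 0.231. They included normal scores (0.143), windows of 2000 bp (0.0526), the replicate block (0.0542), and the fits without Th9 replicate 3 (0.0944), Th2 replicates 1 and 3 (0.163 and 0.231) and Th17 replicates 1 and 3 (0.0823 and 0.0818). The median of the 14 was 0.25 between Th9 and Th2. Psmb10, the remaining catalytic subunit of the immunoproteasome, lay at 87.0 and 89.2 in Th9, against 80.2 and 82.4 in Th2 and 72.7 and 77.4 in Th17, in steps like Psmb8.

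Of 10 annotated genes of class II processing and costimulation, 7 were called in all libraries and none of these passed in limma. Their Th9 minus Th2 median was −0.33. Cd83, which holds class II at the cell surface, lay at 95.9 and 95.1 in Th9, against 92.8 and 88.2 in Th2, and 79.8 in Th17 replicate 3, with no peak in the window in Th17 replicate 1. March1, a ubiquitin ligase that removes class II from the surface, was weak, from 8.57 to 39.0 in 5 libraries and with no call in Th9 replicate 3. Ctss, a protease that cleaves the invariant chain, was called at 68.7 in Th9 replicate 1 and 68.9 in Th2 replicate 3 only. Neither of these split by subset. Of 5 annotated class I-like genes on other chromosomes, Cd1d1, which presents lipids, and Mr1, which presents vitamin metabolites, were called in all libraries, at 86.3 to 94.7 and 71.5 to 84.9. Hfe was called in 4 libraries at no more than 42.2, and Fcgrt and Azgp1 in none.

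Among the marker genes, Flt3 was the 1 gene that passed in limma. Its log2 difference was −0.73 ± 0.15 (SE, adjusted p = 0.0334) between Th9 and Th2 and 0.83 ± 0.15 (SE, adjusted p = 0.0141) between Th2 and Th17, so that Th2 was highest. Over 12 alternatives the limma adjusted p ranged from 0.0201 to 0.169 and from 0.00319 to 0.236. Both calls were lost with normal scores (0.145 and 0.0674) and without Th2 replicate 1 (0.144 and 0.101), Th2 replicate 3 (0.169 and 0.0719), Th17 replicate 1 (0.0777 and 0.236) and Th17 replicate 3 (0.0790 and 0.124), and the first also without Th9 replicate 3 (0.0549). H2-Ke6 lay between 90.7 and 94.8 in the 6 libraries.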

How the data were processed

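ATAC-seq peak lists of 6 libraries, 2 each of Th9, Th2 and Th17 cells, were analysed. Per the methods, the authors trimmed read pairs with Trim Galore 0.4.3, aligned them to mm10 with bowtie2, removed duplicates with Picard, excluded mitochondrial reads and reads of low mapping quality, and called broad peaks with MACS2 (version 2.1.0 in the submitters' processing notes) in each library without an input control or a local background. A genome-wide background can favour regions present in many copies. The peak-calling cutoff and a shift for Tn5 cuts were not stated. The deposited lists give each peak a display score, which was not used here, a fold enrichment over background, which is a linear ratio, and p- and q-values as −log10. The authors deposited no read counts, so depth is unknown and no counting interval was possible.

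Genes and starts were taken from the GENCODE M21 basic set, and promoter sequences from RefSeq (GRCm38.p6). A peak had to overlap a window by 1 bp or more. The fold enrichment of the strongest promoter peak was ranked within its list, and its log2 was quantile-normalised and tested with limma 3.58.1 (R 4.3.3, trend on mean level, Benjamini-Hochberg over all 12886 genes called in all libraries, 3 residual degrees of freedom). Overlapping or touching peaks of any list were merged to form regions. Both strands of the assembly were searched for repeated 50-base words. Scripts ran under Python 3.11.15 (numpy 2.4.6, pandas 2.3.3), and they were tested on simulated data. The genes, the gene lists and the tests were chosen with earlier results of these data known. All genes of the list were accounted for, and 1 gene of the B cell list is not reported here. Genes of other lists were named when they passed the limma test or differed in calls between libraries, or as examples. Other settings tried were a minimum −log10 q of 5, a minimum fold of 4, equally long lists, the top 20000 peaks, windows of 2000 bp on either side, an overlap of 200 bp or more, other scalings, a replicate block and each library left out. Starts of the comprehensive annotation and unadjusted p-values were added after the data had been seen.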

Additional observations from a re-analysis of the deposited data

How the results depend on the processing

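The count of MHC and processing genes called in all libraries, 23 with 9 of class I and 5 of class II, was 23, 9 and 5 without each single library and with lists of equal length. It was 21, 9 and 3 with a −log10 q of at least 5, against 51.5% of all genes, 21, 8 and 4 with an overlap of 200 bp, and 24, 9 and 6 with windows of 2000 bp or the comprehensive annotation, which adds H2-Oa. With a fold enrichment of at least 4, or with the top 20000 peaks by fold, it was 10, 5 and 1, against 40.7% and 40.3% of all genes.

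In limma, genes differing between Th9 and Th2, Th9 and Th17, and Th2 and Th17 numbered 193, 81 and 147. Normal scores of the percentile gave 0, 26 and 33, and a −log10 q of at least 5 gave 34 between Th9 and Th17. Leaving out single libraries gave 3 to 1494, 9 to 299 and 11 to 511 genes. The counts were lowest without Th2 replicate 3 in the first comparison and without Th17 replicate 3 in the other two, and highest without Th9 replicate 1 in the first 2 and without Th9 replicate 3 in the third. The cause was not tested. Members of the list called ranged over 0 to 3, 0 to 1 and 0 to 2. Windows of 2000 bp added 1 call (H2-Oa, Th9 against Th2), and median centring 1 (H2-DMb2, Th9 against Th17). An unadjusted p under 0.05 in limma gave 11, 7 and 4 of 23, against 2983, 1734 and 1833 of the 12886 genes tested.

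With a replicate block, 177, 74 and 143 genes and 0 genes of the list were called. Whether the numbers 1 and 3 pair the libraries is not given by the labels, so no pairing was assumed. The differences between replicates correlated at 0.196 for Th9 and Th2, −0.0827 for Th9 and Th17, and 0.161 for Th2 and Th17 across 12886 genes. A fit that leaves out a library assumes that the lone library varies like the others. Unknown depth, 2 libraries a subset, and peaks with no value where none was called limit every comparison.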
